A study of Mus musculus with 6 samples.

Results

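Transcript signals of 9 integrin chains, Itgal, Itgb2, Itgb1, Itga1, Itga2, Itga6, Itgav, Itgb3 and Itgb8, were followed in mouse CD4+ T cells (helper T lymphocytes). They were chosen by name, as T cell integrin chains other than Itga4, Itgb7 and Itgae, and through every probe set that the platform annotation assigns to a single gene symbol of the list. This gave 22 of the 45101 probe sets on each array. The cells came from spleen and lymph nodes and their RNA was read on 6 expression arrays in 3 groups, RA, Ro and Control, with 2 arrays a group. RA is the retinoic acid of the series title, a vitamin A metabolite, and the labels do not expand Ro. No strain, genotype, age or concentration of either agent is given in the sources used here. Only Control replicate 2 carries a culture protocol, 5 days with IL-2, TGF-b1, IL-6, IL-1b, IL-23, IL-21 and TNF-a and with antibodies against IL-4 and IFN-gamma. The labels leave unsaid whether the cells of the remaining arrays were grown in this way.

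Integrins are adhesion receptors built of an alpha and a beta chain, and the pairing decides which ligand is bound. In T cells the Itgal and Itgb2 products form LFA-1, which holds a T cell to an antigen-presenting cell or an endothelium through ICAM proteins. The Itgb1 product pairs with the alpha chains of Itga1 and Itga2 to bind collagens and with that of Itga6 to bind laminins. The Itgav product pairs with that of Itgb3 to bind vitronectin and related proteins, and with that of Itgb8 to release active TGF-beta from its latent complex. Retinoic acid is known for directing T cells to the gut through Itga4 and Itgb7, whose products form the gut homing integrin.

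The arrays were checked before the members were read. Signals are in arbitrary units, with a median of 16.3 to 23.8 per array. All 7 measured T cell marker genes passed the filter on dim probe sets on 6 of 6 arrays, with the helper T cell co-receptor gene Cd4 at 1308 and 1141 in RA, 1387 and 1791 in Ro and 1476 and 463 in Control. Control replicate 2 stood apart: its log2 values correlated with those of the other 5 arrays at only 0.911 to 0.917, against 0.961 to 0.972 among those 5. Eif2s3y, a Y-linked gene, was read at 0.972 on it and at 747 to 967 elsewhere. Xist, which female cells transcribe, stood at 4326 on Control replicate 2 and at 680 on Control replicate 1, while RA and Ro libraries had 13.1 to 22.7, so that Control replicate 1 differed from those groups as well. Control replicate 2 also had Cd8a, a marker of CD8 T cells, at 236, against 4.29 to 23.2 elsewhere. Cd8b1, the other CD8 T cell marker listed, was not raised there, at 85.0 against 54.6 to 164 elsewhere. Klrd1, an NK cell receptor gene, stood at 2060 on Control replicate 2, against 223 to 887 on the other arrays. Ncr1 and Klra8, the other measured NK cell markers, were below the filter on all 6 arrays, at 9.24 and 2.17 on Control replicate 2. Differences of the members from Control are therefore given with and without Control replicate 2. In such bulk samples fewer cells of a type and less RNA per cell cannot be told apart.

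A log2 difference below is relative to the median tested probe set, because the arrays differed in general brightness. Before centring, the median difference was -0.21 for RA minus Ro, 0.09 for RA minus Control and 0.29 for Ro minus Control. A probe set was tested if it exceeded the 40th percentile of its array, a signal of 9.52 to 12.5, on at least 2 arrays. Of the members, 14 of 22 probe sets and 7 of 9 genes were tested. Itga1 and Itgb8 were below this filter. Each gene is described by its brightest probe set that is not marked as cross-hybridising. Precision is limited by how few arrays there are, and 2 arrays against 2 cannot give an exact two-sided permutation p below 0.333. Nothing in the labels ties the replicates to separate cultures or animals. The p-values therefore reflect the spread among these 6 arrays alone, which may be technical.

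**Figure D1:**
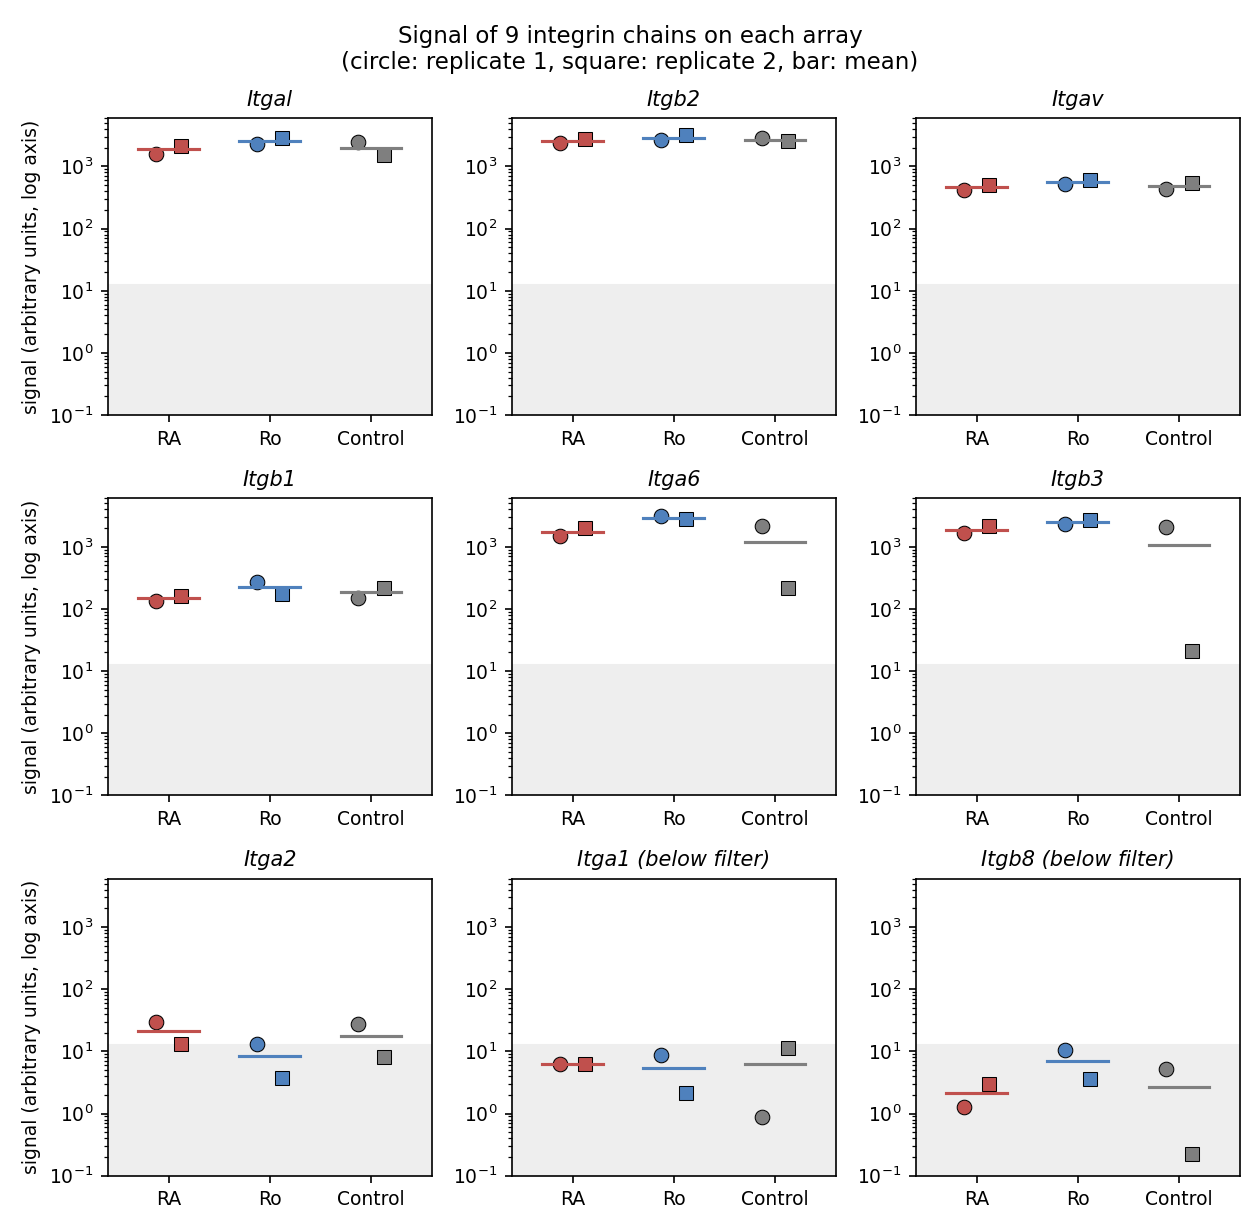
Signal of the 9 integrin chains on each array, in arbitrary units on a log axis, for 1 probe set a gene. Circles are replicate 1, squares replicate 2 and bars the group mean, and the grey band reaches up to the highest 40th percentile of an array, 12.5. Itgb3 and Itga6 stand at 20.7 and 220 on Control replicate 2, far below their other 5 arrays.

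Promoter windows of 5 members were found in RefSeq's table for GRCm38.p6, those of Itgav, Itgb1, Itga1, Itga2 and Itgb8, each from 250 bases before to 50 after the start. Since the groups are named for retinoic acid, they were searched on both strands for the hexamers AGGTCA and AGTTCA, core motifs of retinoic acid receptors, with overlapping matches allowed. The 5 windows held 0 matches. Of all 32851 windows, 16.3% held AGGTCA and 14.0% held AGTTCA. The windows of Itga2, Itgb1 and Itgav are shown. Itga2 was the only tested member with both RA arrays above both Ro arrays. For Itgb1 and Itgav the RA and Ro arrays overlapped after centring on the brightest probe set. Itga2 lies on the minus strand at chr13:114932051-114932350, Itgb1 on the plus strand at chr8:128685404-128685703 and Itgav on the plus strand at chr2:83724147-83724446. Capitals mark the GC box GGGCGG on either strand, which 35.7% of all windows held.
Itga2: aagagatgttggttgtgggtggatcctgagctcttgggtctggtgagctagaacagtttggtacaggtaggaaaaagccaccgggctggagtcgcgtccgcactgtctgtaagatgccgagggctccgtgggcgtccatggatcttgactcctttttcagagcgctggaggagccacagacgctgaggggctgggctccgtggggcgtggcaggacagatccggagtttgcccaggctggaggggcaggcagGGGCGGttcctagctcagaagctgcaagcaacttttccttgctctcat
Itgb1: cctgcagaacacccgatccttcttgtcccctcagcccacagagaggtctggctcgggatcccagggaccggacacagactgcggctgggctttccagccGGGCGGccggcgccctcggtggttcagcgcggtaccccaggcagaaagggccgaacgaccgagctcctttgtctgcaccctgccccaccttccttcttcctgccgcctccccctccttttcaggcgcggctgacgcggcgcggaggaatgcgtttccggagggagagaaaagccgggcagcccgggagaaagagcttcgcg
Itgav: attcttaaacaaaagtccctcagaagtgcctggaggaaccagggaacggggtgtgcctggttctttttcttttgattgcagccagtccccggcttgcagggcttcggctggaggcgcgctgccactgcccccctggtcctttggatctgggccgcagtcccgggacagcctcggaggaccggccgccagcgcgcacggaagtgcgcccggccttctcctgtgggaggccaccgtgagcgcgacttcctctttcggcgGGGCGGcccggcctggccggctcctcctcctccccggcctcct
Each of these windows holds 1 GC box, and none of these letters was tested for function here.

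The chains of LFA-1 were bright on every array. Itgal, whose product is the LFA-1 alpha chain, had signals of 1597 and 2171 in RA, 2339 and 2894 in Ro and 2487 and 1537 in Control. Both RA arrays lay below both Ro arrays, whereas the Control arrays overlapped with both groups. The mean signal was 1884 ± 406 in RA, 2616 ± 393 in Ro and 2012 ± 672 in Control (SD, n = 2 each). The log2 difference of RA minus Ro was -0.27 (SE 0.28, 95% interval -0.93 to 0.40), and limma did not call it (adjusted p = 1). A second Itgal probe set had the same order, 224 and 274 in RA, 350 and 454 in Ro and 401 and 194 in Control, with a log2 difference of -0.47 (SE 0.29) for RA minus Ro (95% interval -1.16 to 0.23). In centred values Itgal varied by only 0.51 on the log2 scale over the 6 arrays, the narrowest range of the 7 tested members.

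Itgb2, the beta chain of LFA-1 and of the myeloid integrins, had signals of 2353 and 2718 in RA, 2668 and 3162 in Ro and 2894 and 2525 in Control. All of the groups overlapped. The RA minus Ro difference was 0.016 (SE 0.30, 95% interval -0.70 to 0.73), and its sign depends on the centring, since it was -0.20 in the values as deposited. In the centred fit of all arrays, a 2-fold difference of RA from Ro lies outside the 95% intervals of Itgb2 and of the brighter Itgal probe set. This holds in either direction, 2-fold being 1 on the log2 scale. The interval of the second Itgal probe set includes a 2-fold lower level in RA. For the brighter Itgal probe set the exclusion depends on the setting. Its difference was -0.48 (SE 0.33) in the values as deposited and -0.39 (SE 0.29) without a filter, which does not exclude a 2-fold lower level. Its error rose to 0.32 in the fit without the intensity trend and in that with replicate number as block. No exclusion of a 2-fold lower Itgal level is claimed for those fits. With an RA or Ro array left out the errors of Itgal and Itgb2 were larger, and no exclusion is claimed there. Over the 5 arrays other than Control replicate 2, Itgb2 varied by 0.11 on the centred log2 scale.

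Itgb1, the shared beta chain of the collagen and laminin receptors, had signals of 132 and 162 in RA, 271 and 175 in Ro and 150 and 220 in Control. The RA arrays lay below the Ro arrays as deposited and overlapped with them after centring. The difference of RA minus Ro was -0.35 (SE 0.48, 95% interval -1.50 to 0.80, limma adjusted p = 1), and without Ro replicate 1 it turned to 0.035. Of the other 5 Itgb1 probe sets, 2 were tested, with differences of -0.13 (SE 0.49) and -0.38 (SE 0.69), and the remaining 3 had signals from 0.227 to 9.22.

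Among the members, Itga6 had the lowest p-values for RA minus Ro when only those 4 arrays were fitted. Its product, a partner of that of Itgb1, is the alpha chain of laminin receptors. Itga6 had signals of 1474 and 1992 in RA, 3079 and 2821 in Ro and 2177 and 220 in Control. The second Itga6 probe set had 642 and 1076 in RA, 1534 and 1750 in Ro and 1061 and 68.5 in Control. On both probe sets both RA arrays lay below both Ro arrays, and Control replicate 1 lay below both Ro arrays and above RA replicate 1.

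The mean signal of Itga6 in RA was 0.587 of that in Ro (1733 ± 367 in RA and 2950 ± 182 in Ro), or 0.523 on the second probe set. In the limma fit of all 6 arrays the log2 differences of RA minus Ro were -0.57 (SE 0.74, 95% interval -2.32 to 1.19) and -0.76 (SE 0.90, -2.90 to 1.38), both with an adjusted p of 1. The unlike Control arrays enter these errors. In the limma fit of the 4 RA and Ro arrays the differences were -0.56 (SE 0.20, 95% interval -1.03 to -0.08) and -0.75 (SE 0.25, -1.35 to -0.15), with unadjusted p of 0.0280 and 0.0210 and an adjusted p of 0.942 for each. Itga6 therefore did not pass over all probe sets in either fit. With the RA and Ro arrays alone, 4.68% of all tested probe sets had a p under 0.05 before adjustment.

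Itga2 and Itga1, whose products are the alpha chains of collagen receptors, were dim. Itga2 had signals of 29.2 and 13.4 in RA, 13.1 and 3.67 in Ro and 27.9 and 8.14 in Control. Both RA arrays lay above both Ro arrays, but RA replicate 2 exceeded Ro replicate 1 by little, and replicate 2 was the lower array in each group. The log2 difference of RA minus Ro was 1.36 (SE 0.67, 95% interval -0.22 to 2.95, limma adjusted p = 1), and it ran from 0.67 to 2.07 when single arrays were left out. The size of a difference between such dim signals is uncertain. Itga1 had signals of 6.24 and 6.36 in RA, 8.67 and 2.16 in Ro and 0.869 and 11.5 in Control, and its second probe set was at 0.161 to 1.40 on all 6 arrays. No order of the groups can be read from the Itga1 signals.

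Itgav, the alpha chain shared by the vitronectin and TGF-beta activating receptors, had signals of 412 and 508 in RA, 529 and 609 in Ro and 439 and 536 in Control. As deposited, the RA arrays lay below the Ro arrays by little, and after centring they overlapped. The RA minus Ro difference was -0.09 (SE 0.38, limma adjusted p = 1). A second tested probe set had 22.3 and 19.8 in RA, 27.3 and 42.7 in Ro and 43.1 and 14.5 in Control, with a difference of -0.42 (SE 0.42) that was not called either. The third tested probe set differed by -0.36 (SE 0.79), and the other 2 were below the filter.

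Itgb3, a beta partner of Itgav that is also the platelet integrin beta chain, had signals of 1643 and 2137 in RA, 2349 and 2732 in Ro and 2089 and 20.7 in Control. A second probe set had 103 and 88.0 in RA, 124 and 143 in Ro and 174 and 3.25 in Control. The RA arrays lay below the Ro arrays on both. In the limma fit of the 4 RA and Ro arrays, however, the differences of -0.21 (SE 0.18, 95% interval -0.65 to 0.23) and -0.25 (SE 0.26) had adjusted p of 0.944 each. Itgb8, the other beta partner of Itgav listed here, had signals of 1.26 and 2.98 in RA, 10.4 and 3.59 in Ro and 5.16 and 0.221 in Control, below the filter on all 6 arrays.

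**Figure D2:**
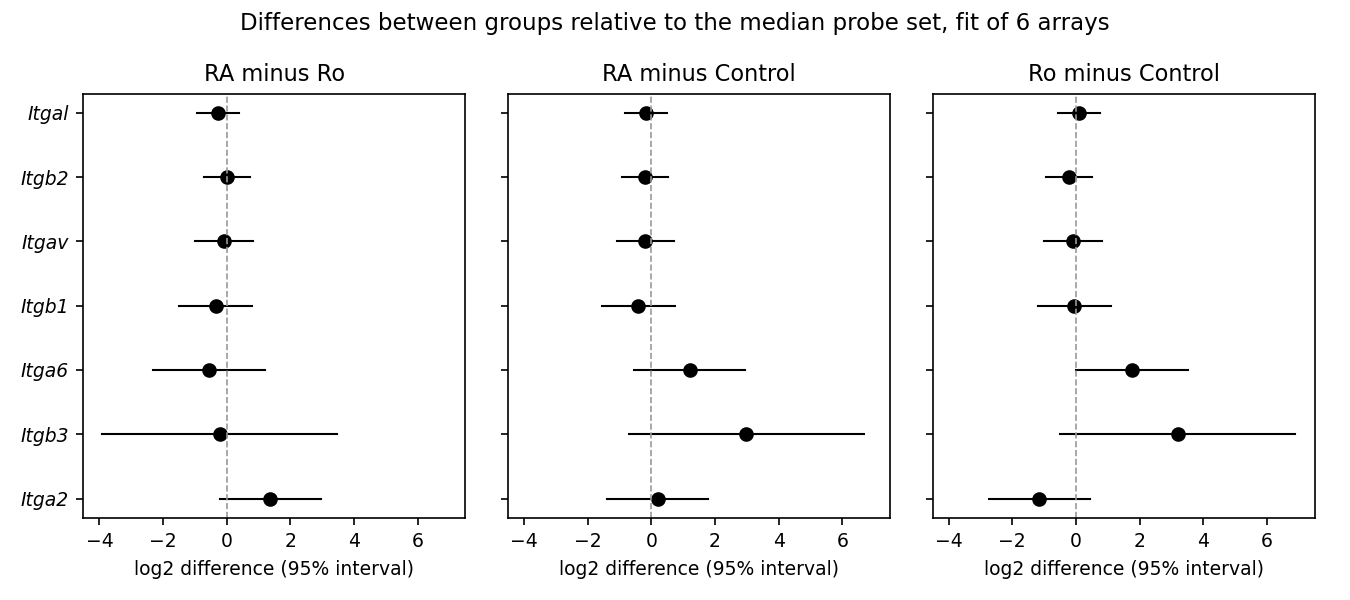
Log2 differences between groups for the 7 tested members, 1 probe set each, relative to the median tested probe set. Points are limma estimates from the 6 arrays and lines are 95% intervals, which include 0 for all RA minus Ro differences and are widest for Itgb3, from -3.91 to 3.47.

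Counted together, 0 of the 14 tested member probe sets passed an adjusted p of 0.05 for RA minus Ro in limma, where 0% of the 29531 probe sets passed, and 0 had an unadjusted p under 0.05, against 1.78% of all. In the fit of the 4 arrays, where 1 dim Itgav probe set missed the filter, 0 members passed (0.0358% of all probe sets did). Before adjustment 2 member probe sets, both of the single gene Itga6, were under 0.05 in that limma fit, as were 4.68% of all. As deposited, both RA arrays lay below both Ro arrays for 9 of the 14 and above for 1, where 33.8% and 6.83% of all tested probe sets did so. After centring, the counts were 7 below and 1 above, where 18.3% and 16.3% of all did so. The 7 belong to 4 genes, Itgal, Itgav, Itga6 and Itgb3, and probe sets of a gene are not independent. Taking 1 probe set a gene, the counts were 3 and 1 of 7 members, and 20.4% and 15.0% of all genes. The median RA minus Ro difference of the 7 members was -0.22, beside -0.024 over all genes, which is a description only.

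The comparisons with Control turned on the unlike Control array. RA and Ro are each set against the same Control arrays, so their values share that spread. For RA minus Control 0 of 14 tested member probe sets passed in limma (0% of all probe sets did), and for Ro minus Control also 0 of 14 (0% of all). Unadjusted p values under 0.05 were found for 0 of 14 in RA minus Control (2.29% of all) and for 2 of 14 in Ro minus Control (5.83% of all), both of them Itga6. After centring, both RA arrays lay below both Control arrays for 1 of the 14 (12.7% of all) and above for 0 (16.1% of all). Both Ro arrays lay below both Control arrays for 2 of the 14 (16.4% of all) and above for 3 (19.2% of all), and these 3 were those of Itga6 and the brighter one of Itgb3.

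Control replicate 2 had Itgb3 at a signal 101-fold below that of Control replicate 1 (20.7 and 2089), and 53.6-fold below on the second probe set. Itga6 was 9.90-fold and 15.5-fold below on its probe sets. After centring, these 4 of the 14 tested member probe sets were at least 4-fold lower on Control replicate 2 than on Control replicate 1, as were 3.13% of all tested probe sets, and 0 of the 14 were at least 4-fold higher, as were 4.66% of all. The other members differed less between the Control arrays: the centred log2 values of replicate 2 minus replicate 1 were 0.04 for Itgal, 0.53 for Itgb2, 1.02 for Itgav, 1.27 for Itgb1 and -0.74 for Itga2. Between the replicates of RA and of Ro, Itga6 differed by 0.30 and -0.26 and Itgb3 by 0.24 and 0.09. There is no replicate check for a difference between single arrays.

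For Itga6 the limma difference of Ro minus Control was 1.77 (SE 0.74, 95% interval 0.01 to 3.52, unadjusted p = 0.0490, adjusted p = 0.694) and that of RA minus Control 1.201 (SE 0.74, adjusted p = 0.914). Without Control replicate 2 these values were 0.47 (SE 0.24) for Ro minus Control and -0.09 (SE 0.24) for RA minus Control, neither called. Without Control replicate 1 the differences were 3.04 (SE 0.26, adjusted p = 0.00203 in limma) and 2.48 (SE 0.26, adjusted p = 0.00410), where limma called 14.2% of all probe sets between Ro and Control, and 11.3% between RA and Control. That fit assumes that the lone Control array varies like the other groups.

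Itgb3 followed the same course. Its difference was 3.19 (SE 1.56, limma adjusted p = 0.694) for Ro minus Control and 2.98 (SE 1.56, adjusted p = 0.914) for RA minus Control with all arrays. It was 0.31 (SE 0.22) and 0.10 (SE 0.22) without Control replicate 2, not called, and 6.05 (SE 0.25, adjusted p = 4.44e-04) and 5.84 (SE 0.25, adjusted p = 6.59e-04) without Control replicate 1. A difference of Itga6 or Itgb3 from Control was thus seen against Control replicate 2 and not called against Control replicate 1. The members that were not lower on Control replicate 2 after centring gave RA minus Control differences of -0.17 (SE 0.28) for Itgal, -0.20 (SE 0.30) for Itgb2, -0.18 (SE 0.38) for Itgav, -0.41 (SE 0.48) for Itgb1, and Ro minus Control differences of 0.10, -0.21, -0.09 and -0.06 with the same errors, all uncalled. For Itga2 they were 0.21 (SE 0.67) and -1.16 (SE 0.67), and without Control replicate 2 -0.17 (SE 0.77) and -1.54 (SE 0.77), uncalled. For Itgal they were -0.16 and 0.10 (SE 0.24) without that array. Without Control replicate 2 the RA minus Control differences of Itgb2, Itgav and Itgb1 turned to 0.062, 0.32 and 0.22, and those of Ro minus Control to 0.038, 0.40 and 0.56.

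**Figure D3:**
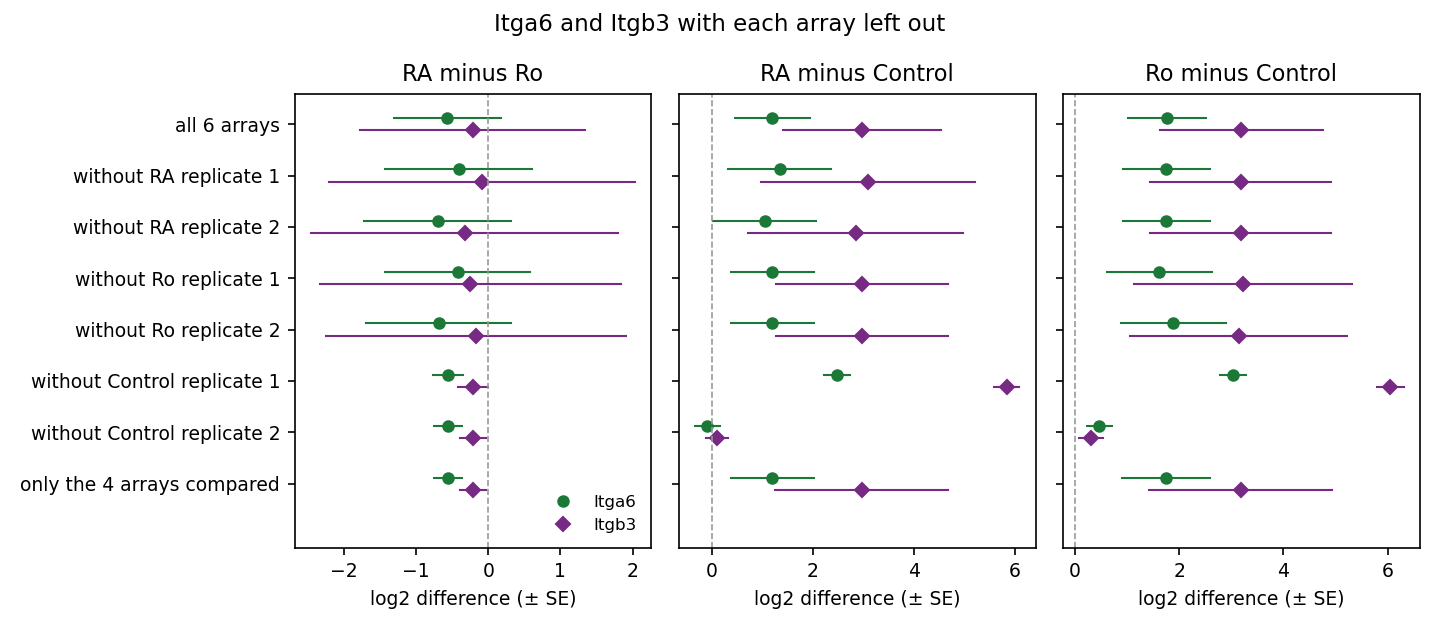
Log2 differences of Itga6 (circles) and Itgb3 (diamonds), for the brighter probe set of each, with lines of 1 SE to each side. The fits used all 6 arrays, all but each array in turn, or only the 4 arrays compared. The RA minus Ro values stay below 0 in all of these fits, between -0.70 and -0.41 for Itga6 when single arrays are left out, whereas the differences from Control lie between -0.088 and 0.47 without Control replicate 2 and are largest without Control replicate 1.

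Markers of other cell types that use some of these chains also varied between arrays. Platelets carry the Itgb3 product with that of Itga2b, and mast cells carry it too. The summed signal of the 5 measured of 6 platelet and megakaryocyte markers was 230 and 1147 in RA, 551 and 2537 in Ro and 703 and 109 in Control. On it the RA and Ro arrays overlapped, and within RA and within Ro the replicates differed by more than those of Itgb3 did. Between the Control arrays it was Itgb3 that differed by more. Itga2b itself had 91.3 and 148 in RA, 188 and 312 in Ro and 161 and 60.9 in Control, a difference of -0.83 (SE 0.39) for RA minus Ro that limma did not call.

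The summed signal of 6 mast cell and basophil markers was 1478 and 1290 in RA, 5517 and 3636 in Ro and 3649 and 154 in Control. It was lower on both RA arrays than on both Ro arrays, as were the sums of the T cell, CD8 T cell, NK cell and endothelial lists. It was lowest on Control replicate 2, as were the signals of Itga6 and Itgb3. All sums are of signals as deposited, not centred, and Control replicate 2 had the lowest median signal, 16.3. As deposited, 33.8% of all tested probe sets were lower on both RA arrays. After centring, 2 of 7 T cell markers were lower on both RA arrays than on both Ro arrays and 2 were higher. All 6 mast cell and basophil markers were lower, where 20.4% of all genes were lower and 15.0% higher. The summed signal of the 6 macrophage and dendritic cell markers was 447 and 426 in RA, 930 and 336 in Ro and 1606 and 122 in Control. Of the defining markers, Ppbp of platelets stood at 1.39 and Mcpt8 of basophils at 6.72 on Control replicate 2. Cma1 of mast cells stood there at 3.30 and Lyz2 of macrophages at 9.57. All of these were below the 40th percentile of that array, 9.66. Other markers of these lists were not low on that array. Kit of mast cells was highest there, at 120 against 25.1 to 104 elsewhere, as was Itgax of dendritic cells, at 30.1 against 16.1 to 26.3, while Gp9 and Gp6 of platelets stood at 21.0 and 12.9, above replicate 1 of each group. Of the other lists, that of 3 NK cell markers was mostly Klrd1. It summed to 231 and 335 in RA, 901 and 574 in Ro and 245 and 2071 in Control. The 2 CD8 T cell markers summed to 58.9 and 93.1 in RA, 139 and 187 in Ro and 135 and 321 in Control. The sum of 3 B cell markers stayed between 43.0 and 95.8. That of 4 endothelial and stromal markers, mostly Pecam1, which platelets and leukocytes also carry, was 408 and 709 in RA, 805 and 1027 in Ro and 628 and 64.8 in Control. The part of these cells in the Itgb3 and Itga6 signals was not tested.

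**Figure D4:**
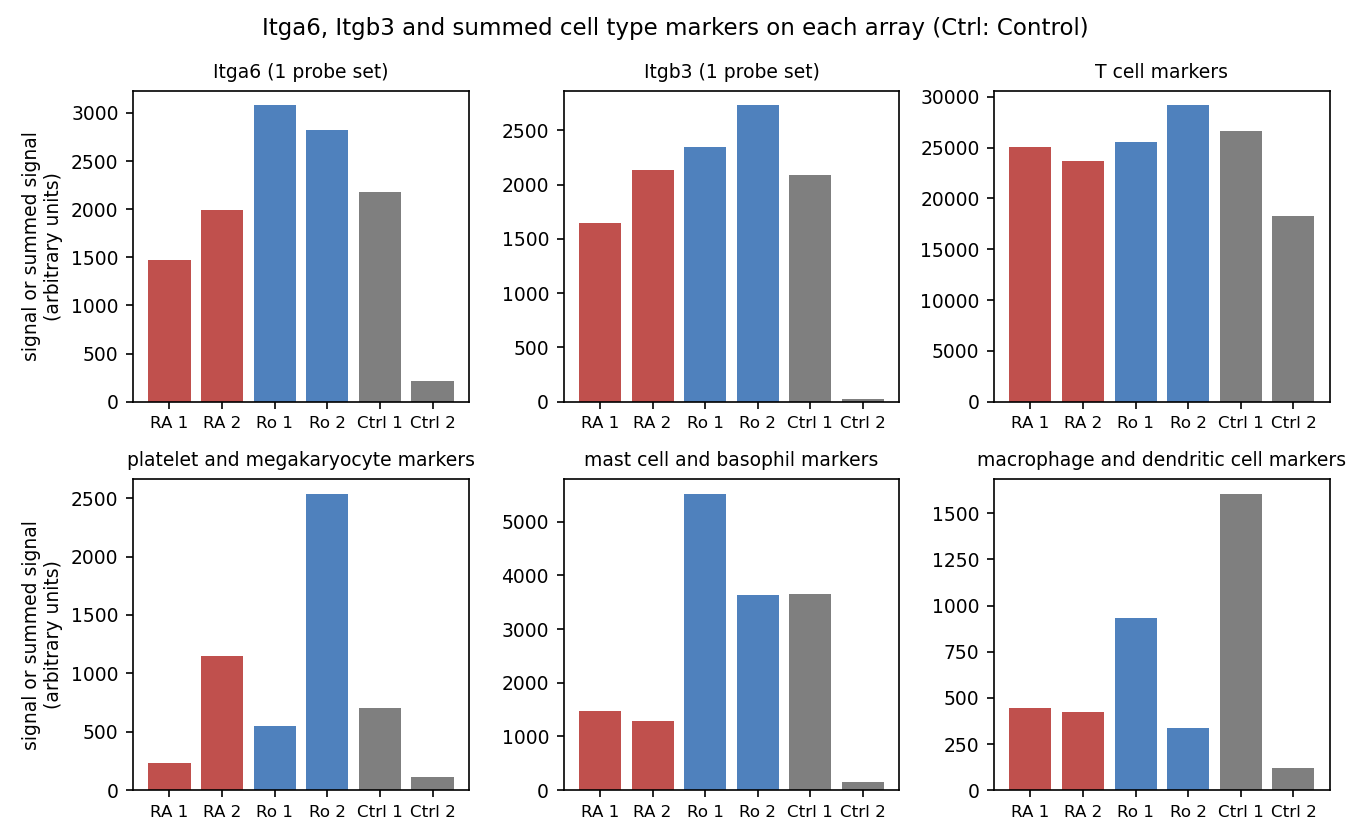
Signals of Itga6 and Itgb3 and summed signals of 4 cell type marker lists on each array, in arbitrary units from 0. Signals are as deposited, not centred, with bars for replicates 1 and 2 of RA, Ro and Control (Ctrl). Control replicate 2 has the lowest bar in every panel. Of the lists not drawn, the endothelial and stromal sum is lowest there, and the NK cell, CD8 T cell and B cell sums are highest there. The platelet and macrophage lists overlap between RA and Ro. The mast cell and basophil list and the T cell list are lower on both RA arrays than on both Ro arrays.

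Itga4, the alpha chain of the gut homing integrin and also a partner of Itgb1, had signals of 1537 and 1410 in RA, 178 and 505 in Ro and 1195 and 154 in Control, with an RA minus Ro difference of 2.50 (SE 0.75, limma adjusted p = 1, and 0.440 in the fit of the 4 arrays). Itgb7 had 2258 and 2924 in RA, 3078 and 3710 in Ro and 2809 and 917 in Control, and Itgae 28.0 and 23.6 in RA, 32.3 and 17.2 in Ro and 15.7 and 678 in Control.

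Of 30 listed genes that link integrins to the cytoskeleton or switch them on, 25 were tested and 0 were called in any comparison. An unadjusted limma p under 0.05 was found for 0 in RA minus Ro, 0 in RA minus Control and 3 in Ro minus Control. Over all probe sets these shares were 1.78%, 2.29% and 5.83%. The 25 genes had median differences of -0.086 for RA minus Ro, 0.17 for RA minus Control and 0.37 for Ro minus Control. For RA minus Ro both arrays of RA lay below both of Ro for 7 of the 25 and above for 1, where 20.4% and 15.0% of all genes did so. Against Control, the RA arrays were both above for 8 and both below for 0 (19% and 10.4% of all genes), and the Ro arrays both above for 13 and both below for 1 (22.8% and 12.3% of all genes). Without Control replicate 2 the medians were 0.09 for RA minus Control and 0.29 for Ro minus Control, beside 0.12 and 0.16 over all genes. The largest RA minus Ro differences were those of Ptk2b, a focal adhesion kinase relative, at -0.84 (SE 0.47), of Fermt2, a kindlin that binds beta chain tails, at -0.60 (SE 0.59), and of Rasgrp2, which activates Rap1 ahead of LFA-1, at -0.53 (SE 0.87). Ptk2b had 332 and 714 in RA, 760 and 1366 in Ro and 610 and 211 in Control. Rasgrp2 had 524 and 874 in RA, 992 and 1303 in Ro and 675 and 47.5 in Control, the lowest array again being Control replicate 2.

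Of 18 integrin ligand genes, 12 were tested and 0 were called in any comparison. In the same order, 0, 0 and 1 had an unadjusted limma p under 0.05, beside 1.78%, 2.29% and 5.83% of all probe sets. Both RA arrays lay below both Ro arrays for 7 of the 12 and above for 0, where 20.4% and 15.0% of all genes did so. The median RA minus Ro difference was -0.36, beside -0.024 over all genes. Without Control replicate 2 the ligand medians were -0.25 for RA minus Control and 0.09 for Ro minus Control, beside 0.12 and 0.16 over all genes. Icam1, the principal ligand of LFA-1, had signals of 100 and 198 in RA, 274 and 451 in Ro and 169 and 442 in Control, a difference of -1.09 (SE 0.68) for RA minus Ro. Cdh1, the E-cadherin gene whose product the Itgae integrin binds, had 43.6 and 43.5 in RA, 209 and 65.4 in Ro and 176 and 7.65 in Control (-1.15, SE 1.06), and Thbs1, a matrix ligand of the vitronectin receptor, differed by -0.82 (SE 0.77). Of the 17 remaining integrin chains, 12 were tested and 0 were called, with a median RA minus Ro difference of 0.09. Among these 12, 1, 0 and 1 had an unadjusted limma p under 0.05, beside the same shares of all probe sets. These lists were made knowing earlier results of the arrays, so their counts are descriptions.

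Over the 6 arrays the centred log2 values of the members ranged by 6.10 for Itgb3, 3.18 for Itga6 and 2.62 for Itga2, and by 0.51 to 1.27 for the other 4 tested members. Without Control replicate 2 the range was 0.38 for Itgb3 and 0.84 for Itga6, and still 2.62 for Itga2. The genes whose values were most like those of Itgb3 by Pearson's r over 6 arrays were Ifi209 (0.9996) and Zfpm1 (0.998), and those most like Itga6 were Sp3 (0.999) and Emsy (0.998). Without Control replicate 2 these r were 0.898, 0.852, 0.980 and 0.972. With so few arrays 964 and 1038 of 12996 genes had an r over 0.9 with Itgb3 and with Itga6. For Itga2 the nearest genes were Ly6g6c (0.988) and Klhdc8b (0.987), both dim as well, at 25.0 to 50.4 and 4.02 to 38.0.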

How the data were processed

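Total RNA (2 ug per array) went through 1 round of amplification with biotin labelling, per the labels' protocols. The authors deposited 1 linear intensity per probe set, made with MAS5 per the submitters' processing notes. Its version and scaling target are not given. No detection calls were used. Trimmed means (2% at each end) ran from 116 to 179, so the arrays were not on a common scale. No 2 arrays shared more than 0.00443% identical values.

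Groups and replicate numbers come from the titles, RO and Ro being taken as 1 group. Probe sets were named from GEO's platform annotation (34958 with 1 symbol, 932 with several, 9211 with none), and the 64 control probe sets were left out. Members and lists were chosen with earlier results of these data known. Differences were tested with limma 3.58.1 in R 4.3.3 (lmFit, eBayes with intensity trend, two-sided) on log2(signal + 3.00), the pseudocount being the 20th percentile of all values, each array centred on its median over the 29531 tested probe sets of 12996 genes. It makes differences of dim genes look smaller. One fit over the 6 arrays left 3 residual degrees of freedom. P-values were adjusted by Benjamini-Hochberg over all tested probe sets, with a threshold of 0.05. All 9 members, Itga4, Itgb7 and Itgae and the 3 genes of each list with the largest RA minus Ro difference were named by rule, and of the most similar genes 2 for each of the 3 members that varied most. Eif2s3y, Cd8a, Cd8b1, the NK cell markers, Kit and the chains under other observations were singled out after their values were seen. The fit was checked on simulated data with equal spread on all arrays, which does not cover an unlike array such as Control replicate 2.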

Additional observations from a re-analysis of the deposited data

How the results depend on the processing

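The settings tried were other pseudocounts (1, or the median of all values), values as deposited, quantile normalization, a common trimmed mean, filters at the 60th percentile or none at all, a fit without the trend, replicate number as block, only the arrays compared, the mean of a gene's probe sets, and each array left out. Of 354 recomputed member differences, 326 kept their direction and their side of the threshold, 24 turned and 4 became called, those of Itga6 and Itgb3 against Control without Control replicate 1. Limma called 0 probe sets for each comparison with all arrays, with 525 for RA minus Ro, 676 for RA minus Control and 1721 for Ro minus Control at an unadjusted p under 0.05. With the pseudocount at the median of all values it called 2 for RA minus Ro and 2 for RA minus Control, and with only the 4 arrays compared 10 for RA minus Ro. Leaving out single arrays gave 0 to 10 calls for RA minus Ro, 0 to 3258 for RA minus Control and 0 to 4117 for Ro minus Control, the highest without Control replicate 1. With the replicate number as a block there were 0 calls in each comparison, and the block changed no call of a member. The numbers are not known to pair the arrays: deviations of same-numbered arrays correlated at 0.25 between RA and Ro, 0.0050 between RA and Control and -0.029 between Ro and Control.

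Small differences turned with the setting, and the cause was not tested. For RA minus Ro, Itgb2 was -0.019 with the pseudocount at the median, -0.20 as deposited and -0.10 without a filter. For Ro minus Control, values as deposited gave 0.23 for Itgav, 0.26 for Itgb1 and 0.10 for Itgb2, no filter gave 0.16, 0.19 and 0.039, and a filter at the 60th percentile gave -0.023 for Itgal. With single arrays left out, RA minus Ro ran from -0.72 to 0.035 for Itgb1 and from -0.031 to 0.078 for Itgb2. RA minus Control ran from -0.69 to 0.32 for Itgav, -1.05 to 0.22 for Itgb1, -0.46 to 0.062 for Itgb2, -0.088 to 2.48 for Itga6 and -0.35 to 0.76 for Itga2. Ro minus Control ran from -0.0016 to 0.17 for Itgal, -0.61 to 0.40 for Itgav, -0.70 to 0.56 for Itgb1 and -0.49 to 0.038 for Itgb2. The RA minus Ro differences of Itga6, Itgal, Itgav, Itgb3 and Itga2 kept their direction in the settings run, which for Itga2 leave out the filter at the 60th percentile, under which it was not tested. Without a filter, added after seeing the data for the members below it, Itga1 and Itgb8 differed by 0.36 (SE 0.81) and -0.80 (SE 0.54) for RA minus Ro, uncalled. Signals of Itga1, Itga2 and Itgb8 lay near or below the filter, which limits what can be said of them. The values of the gene lists without Control replicate 2 were also added after seeing the data.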

Other observations

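Some other integrin alpha chains were higher on Control replicate 2 than on the other arrays, and some were lower. Itga2b, Itga10 and Itgam had their lowest signals there, at 60.9, 3.82 and 8.66. Itga3, a laminin receptor alpha chain, had a signal of 329 there, against 30.2 to 53.2 on the other 5 arrays. Itga7, another laminin receptor alpha chain, had 321 there, against 50.9 to 136 elsewhere. Itgae, which marks T cells resident in epithelia, had 678 there and 15.7 to 32.3 elsewhere on one probe set, and 276 there and 13.9 to 35.9 elsewhere on the other. The set of alpha chains with bright probe sets thus differed between that array, with lower Itga6 and Itga4 and higher Itga3, Itga7 and Itgae, and Control replicate 1. These are values of single arrays with no replicate check.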
